A study of Rattus norvegicus with 21 samples.

Results

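The complement genes described here are 9 rows of a gene expression table of rat bone marrow mesenchymal stem cells, chosen by symbol out of 9998 genes: C1qa, C1qb, C1qc, C1s, C3, Cfb, C5ar1, Cd55 and Cd59. All 9 had enough counts to be tested. The 21 libraries were made from total RNA and fall into 7 groups of 3, and all carried the wild-type (WT) genotype label, with no strain given. In 6 groups the cells had the treatment SFSN (self-feedback synaptic networks, from the title of the series), each group named for a cell fate: SFSN-EC for endothelial cells, SFSN-Ot for osteoblasts, SFSN-TC for tendon cells, SFSN-FB for fibroblasts, SFSN-Neu for cells like neurons and SFSN-Adipo for adipocytes. The remaining group was Control. The labels do not say whether the 3 libraries of a group were separate cultures or animals, nor whether SFSN and Control cells were handled together. The p-values below therefore measure the spread between these libraries, which may be technical.

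Complement is a set of plasma and cell surface proteins that marks targets and calls in leukocytes. C1q, with the proteases C1r and C1s, starts the classical pathway; factor B with C3 forms the convertase of the alternative pathway, which amplifies the deposition of C3 fragments. CD55 and CD59 are membrane proteins that hold this process back on the body's own cells, CD55 by speeding the decay of convertases and CD59 by blocking the membrane attack complex, and C5AR1 is the receptor for the fragment C5a. The liver makes most plasma C3 and factor B, C1q comes largely from macrophages and related myeloid cells, and fibroblasts and other stromal cells make C1r and C1s.

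Promoters of 4 of the 9 genes were held in the RefSeq table used here (build GRCr8), and they are shown because these genes carry the patterns described below: C1qa and C1qb were highest in SFSN-Neu, and C3 was higher and Cd55 lower in all 6 SFSN groups than in Control. C1qc, C1s, Cfb, C5ar1 and Cd59 were not matched. Each sequence runs 5′ to 3′ on the gene's strand, from 250 bases before the annotated start to 50 after it, and capitals mark matches to a motif.
C1qa (chr5:154419884-154420183, minus strand): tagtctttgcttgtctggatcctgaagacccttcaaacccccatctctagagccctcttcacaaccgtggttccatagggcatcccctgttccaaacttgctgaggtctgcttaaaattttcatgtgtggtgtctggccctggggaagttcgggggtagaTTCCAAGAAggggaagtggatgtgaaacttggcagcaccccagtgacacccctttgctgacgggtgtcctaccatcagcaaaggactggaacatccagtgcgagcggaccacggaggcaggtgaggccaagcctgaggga
C1qb (chr5:154407778-154408077, minus strand): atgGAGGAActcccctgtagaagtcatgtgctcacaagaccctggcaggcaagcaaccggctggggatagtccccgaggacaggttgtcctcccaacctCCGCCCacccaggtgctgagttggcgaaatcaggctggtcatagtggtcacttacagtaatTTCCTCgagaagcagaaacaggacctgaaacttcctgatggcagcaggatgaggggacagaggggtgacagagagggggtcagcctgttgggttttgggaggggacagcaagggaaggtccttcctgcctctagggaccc
C3 (chr9:2201290-2201589, minus strand): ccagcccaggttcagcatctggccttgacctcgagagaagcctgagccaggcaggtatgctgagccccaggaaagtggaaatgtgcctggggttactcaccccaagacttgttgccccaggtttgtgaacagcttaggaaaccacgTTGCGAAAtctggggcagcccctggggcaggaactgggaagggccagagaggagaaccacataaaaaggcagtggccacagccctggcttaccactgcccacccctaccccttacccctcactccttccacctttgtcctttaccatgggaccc
Cd55 (chr13:44438052-44438351, minus strand): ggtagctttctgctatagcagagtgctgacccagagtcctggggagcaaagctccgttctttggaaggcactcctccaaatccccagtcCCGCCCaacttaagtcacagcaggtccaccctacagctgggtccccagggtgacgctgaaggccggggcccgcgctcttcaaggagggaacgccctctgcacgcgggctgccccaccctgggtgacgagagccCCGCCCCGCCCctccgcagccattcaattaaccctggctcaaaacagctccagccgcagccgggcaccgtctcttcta
The motifs were searched on both strands. The C3 promoter held 1 match to the C/EBP motif TTGCNNAA, at positions 147 to 154 of the 300 bases, and 10.6% of 33469 promoters of the same length held this motif. The C1qa promoter held 1 match to the GAS motif TTCNNNGAA, at positions 161 to 169 (8.87% of promoters). The C1qb promoter held the PU.1 motif GAGGAA at positions 4 to 9 and 161 to 166 (27.6% of promoters) and the Sp1 motif GGGCGG at positions 100 to 105 (33.1% of promoters). The Cd55 promoter held the Sp1 motif at positions 90 to 95, 223 to 228 and 228 to 233, the last pair overlapping by 1 base. None of these 4 windows held the letters of the NF-kB motif (GGGA, any base, TTTCC), the ISRE (GAAA, any 2 bases, GAAA), the AP-1 motif TGANTCA or TATAAA, which 0.362%, 3.92%, 7.33% and 14.2% of promoters held. A match is a description of letters and says nothing about binding.

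The 21 libraries held 8113600 to 8934239 counts in the table, which covers part of each library (38.9% to 41.6% of its TPM, a measure per transcript length). Library 1 of SFSN-EC and library 2 of SFSN-Neu stood apart from their groups: the chi-square per degree of freedom of their counts against the other 2 libraries was 44.3 and 45.5 for SFSN-EC and 23.0 and 25.6 for SFSN-Neu, against 2.20 to 15.1 for every other pair within a group. Of 10 markers of mesenchymal stem cells and stroma, such as Col1a1, all had counts, and they summed to 88910 to 120300 CPM (counts per 1e6 counts of the scaled library) in SFSN libraries and 125800 to 131300 CPM in Control libraries. Most of this sum was Col1a1, at means of 59910 to 67680 CPM in the SFSN groups and 76000 CPM in Control. Against Control, 4 of the 10 were lower in each SFSN group and 0 to 2 higher (adjusted p under 0.05, edgeR). Of all genes tested, 15.6% to 21.2% were lower and 17.7% to 21.5% higher. The part of these 10 markers in the results was not tested. Of 8 hepatocyte markers 7 were in the table, and they summed to less than 1 CPM in every library, and 9 endothelial markers summed to 39.6 to 56 CPM in SFSN libraries, SFSN-EC included, and to 90.6 to 96.3 CPM in Control libraries. The largest endothelial difference was in Flt1, at means of 5.02 to 6.08 CPM in the SFSN groups and 34.55 CPM in Control. Egfl7, Erg and Icam2 were also lower by mean, and Esam was lower in SFSN-EC only. Cdh5, Ecscr, Emcn and Kdr averaged under 1 CPM in every group. Markers of macrophages were present in all groups and are given beside the C1q genes.

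Compared per transcript length, Cd59 was the most abundant of the 9 genes, at a mean of 88.7 TPM over the 21 libraries. Cd55 followed at 24.4 TPM, C1s at 16.6 TPM and C5ar1 at 9.61 TPM. C1qa averaged 7.42 TPM, C1qc 4.58 TPM and C1qb 4.43 TPM. The central component C3 and its partner Cfb were the lowest, at 1.06 and 0.747 TPM.

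Each SFSN group was first compared with Control, which asks what the treatment groups share and where they part. A gene was called where its adjusted p (edgeR quasi-likelihood test, Benjamini-Hochberg over 6659 genes) was under 0.05, and fold changes are of the SFSN group over Control on the log2 scale. All 6 comparisons use the same 3 Control libraries and are not independent. C3 and Cfb were higher than Control in all 6 SFSN groups, as were 8.5% of all genes tested, and C1s and Cd55 were lower in all 6, as were 8.97%. The C1q genes were called higher in 1 to 4 groups, C5ar1 was called lower in 3 and Cd59 in 2.

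**Figure D1:**
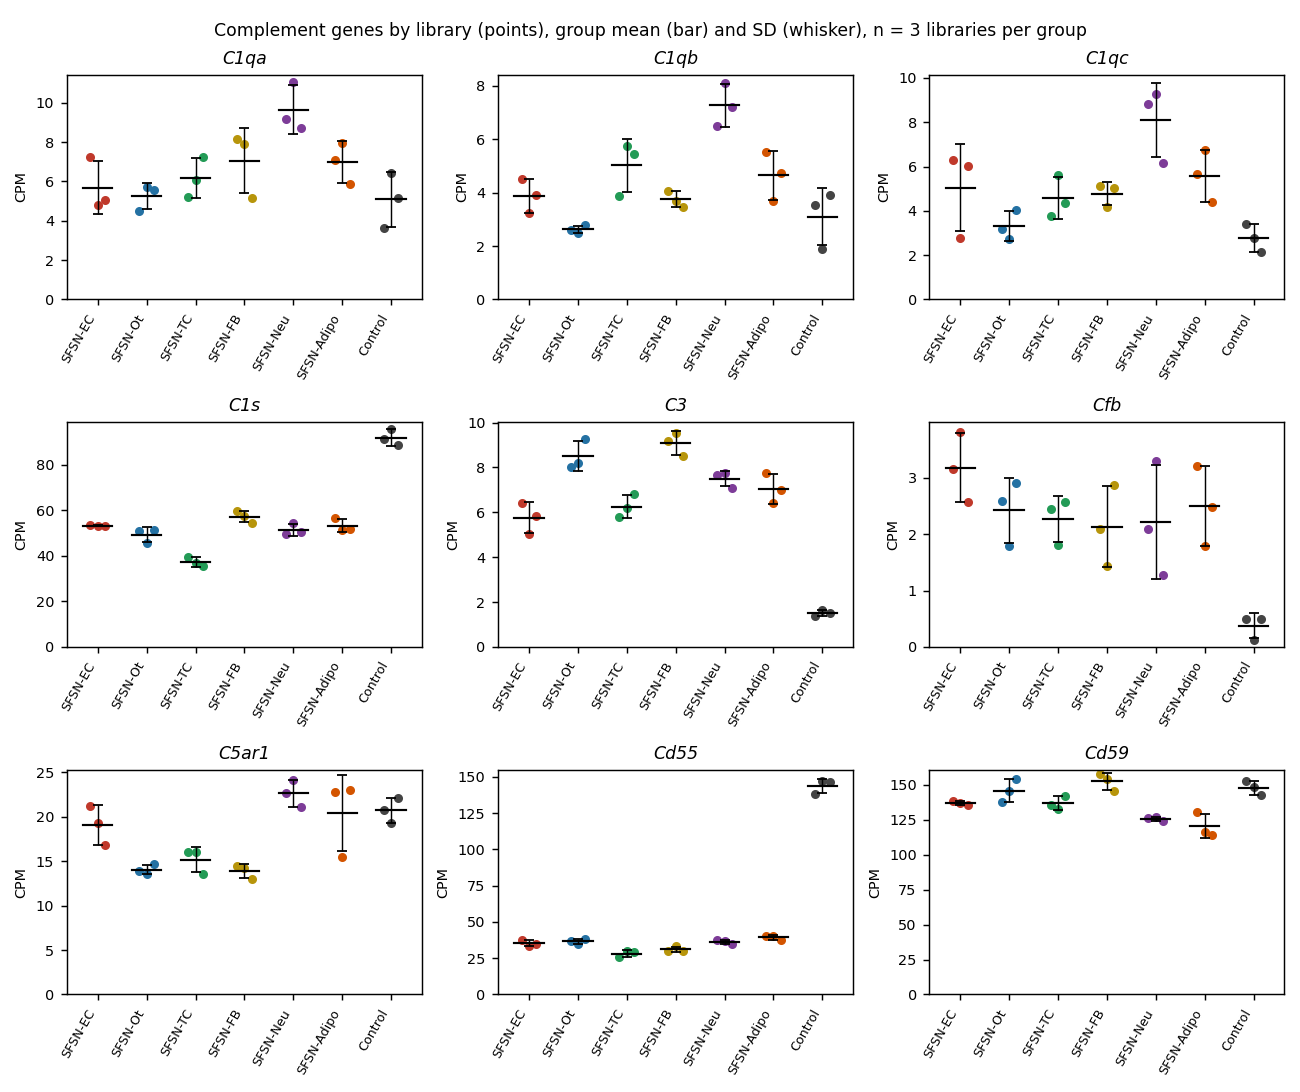
CPM of each of the 9 complement genes in every library (points), with the group mean (bar) and SD (whisker, n = 3), for the 6 SFSN groups and, at the right, Control; each axis starts at 0. All 18 SFSN libraries lie above the 3 Control libraries for C3 and Cfb and below them for C1s and Cd55, and SFSN-Neu has the highest mean of each C1q gene.

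C3, the component on which all complement pathways converge, was 3.81 to 6.01 times as abundant in SFSN groups as in Control by summed counts. Its CPM was 9.19, 9.55 and 8.51 in SFSN-FB and 8.02, 8.21 and 9.28 in SFSN-Ot. In SFSN-Neu it was 7.65, 7.77 and 7.10, and in SFSN-Adipo 7.75, 6.40 and 6.98. By mean, these 4 groups had the higher C3 levels among the treated cells. SFSN-TC had 5.78, 6.18 and 6.81 CPM and SFSN-EC 6.43, 5.03 and 5.82, against 1.39, 1.64 and 1.51 CPM in Control. The SFSN and Control libraries did not overlap: the Control libraries held 11 to 13 counts each and the SFSN libraries 45 to 80. The log2 fold change was lowest in SFSN-EC at 1.92 (SE 0.15, adjusted p = 9.97e-09, edgeR) and highest in SFSN-FB at 2.58 (SE 0.14, adjusted p = 1.03e-10, edgeR). On the log2(TPM + 1) scale, which understates the change of genes near 1 TPM, it was 0.65 in SFSN-EC.

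Cfb encodes factor B, the protease subunit of the alternative pathway convertase. Its counts were 28, 34 and 23 in SFSN-EC, 29, 16 and 22 in SFSN-Adipo, and 22, 15 and 25 in SFSN-Ot. They were 22, 16 and 23 in SFSN-TC, 18, 28 and 11 in SFSN-Neu, and 18, 12 and 24 in SFSN-FB, against 4, 1 and 4 in Control. Every SFSN library was above every Control library, and the 6 SFSN groups overlapped with one another. The ratio of summed counts over Control, scaled for library size, was largest in SFSN-EC at 8.41 (exact 95% interval 4.23 to 19.0) and smallest in SFSN-FB at 5.64 (2.76 to 13.0), where the intervals cover counting error only. Cfb passed the test in all 6 groups, with the highest adjusted p in SFSN-FB at 0.000392 (edgeR, Benjamini-Hochberg). The fitted log2 fold changes of 2.45 to 3.02 depend on the prior count because of the 9 counts in all Control libraries, and on the log2(TPM + 1) scale they were 0.62 to 0.90.

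Cd55, the decay-accelerating regulator, fell in all 6 SFSN groups and had the largest change of the 4 more abundant genes. Its CPM was 25.5, 30.0 and 29.1 in SFSN-TC, 30.2, 33.3 and 29.8 in SFSN-FB, and 37.7, 33.2 and 35.0 in SFSN-EC. It was 37.5, 36.8 and 34.6 in SFSN-Neu, 36.7, 34.6 and 38.3 in SFSN-Ot, and 40.5, 40.4 and 37.3 in SFSN-Adipo, against 138.1, 147 and 146.3 in Control. The lowest Control library was more than 3 times the highest SFSN library. The log2 fold change ran between -2.35 in SFSN-TC (SE 0.07, adjusted p = 4.84e-14, edgeR) and -1.87 in SFSN-Adipo (SE 0.07, adjusted p = 7.96e-13, edgeR). Cd59, the other membrane regulator, ranged over 114.4 to 157.6 CPM in the SFSN libraries and 142.5 to 152.7 CPM in the Control libraries, which overlapped.

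C1s, the protease of the C1 complex that cleaves C4 and C2, was also lower in all 6 SFSN groups. Its CPM was 39.7, 36.9 and 35.4 in SFSN-TC, 51.1, 45.6 and 51.4 in SFSN-Ot, and 49.4, 54.2 and 50.3 in SFSN-Neu. It was 56.5, 51.3 and 51.9 in SFSN-Adipo, 53.5, 53.2 and 53.2 in SFSN-EC, and 59.5, 57.3 and 54.6 in SFSN-FB, against 91.4, 95.7 and 88.6 in Control. No SFSN library reached the level of a Control library. The log2 fold change was -1.30 in SFSN-TC (SE 0.07, adjusted p = 2.77e-11, edgeR) and between -0.90 and -0.69 in the other 5 groups (highest adjusted p = 1.06e-07, edgeR). C1r, the protease that activates C1s, moved the same way, at -0.41 in SFSN-EC to -0.63 in SFSN-TC, and was called in all 6 groups.

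**Figure D2:**
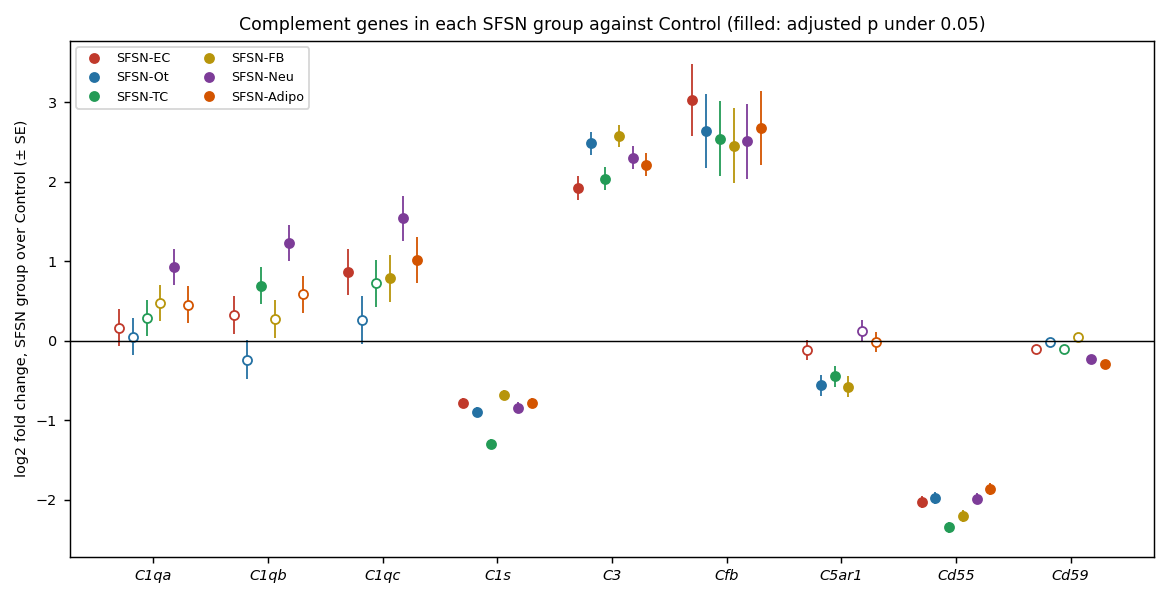
Log2 fold change of each complement gene in each SFSN group over Control (points, with the SE as whiskers; filled points have an adjusted p under 0.05). C3 and Cfb lie between 1.92 and 3.02 in all 6 groups, C1s between -1.30 and -0.69, Cd55 between -2.35 and -1.87, and the C1q genes, C5ar1 and Cd59 are called in some groups only.

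The 3 chains of C1q, the recognition subunit of the classical pathway, are encoded by C1qa, C1qb and C1qc, which lie next to each other on chromosome 5 in the RefSeq gene annotation (a table apart from that of the promoters). C1qb had 6.49, 8.12 and 7.22 CPM in SFSN-Neu, 3.89, 5.74 and 5.47 CPM in SFSN-TC, and 5.54, 3.70 and 4.73 CPM in SFSN-Adipo. It had 4.51, 3.24 and 3.92 CPM in SFSN-EC, 4.07, 3.70 and 3.47 CPM in SFSN-FB, and 2.59, 2.5 and 2.78 CPM in SFSN-Ot, against 3.53, 1.89 and 3.91 CPM in Control. Only in SFSN-Neu were all 3 libraries above all others. C1qa had 9.16, 11.1 and 8.73 CPM in SFSN-Neu, 8.14, 7.88 and 5.15 CPM in SFSN-FB, and 7.09, 7.97 and 5.85 CPM in SFSN-Adipo. It had 5.22, 6.07 and 7.25 CPM in SFSN-TC, 7.22, 4.81 and 5.04 CPM in SFSN-EC, and 4.48, 5.71 and 5.57 CPM in SFSN-Ot, against 3.65, 6.42 and 5.17 CPM in Control. Again the SFSN-Neu libraries were the 3 highest, and each of the other 6 groups overlapped with its neighbours in the order of means. C1qc had 8.81, 9.29 and 6.17 CPM in SFSN-Neu, 5.65, 6.74 and 4.39 CPM in SFSN-Adipo, and 6.32, 2.80 and 6.04 CPM in SFSN-EC. It had 5.12, 4.18 and 5.03 CPM in SFSN-FB, 3.78, 5.62 and 4.35 CPM in SFSN-TC, and 3.18, 2.74 and 4.06 CPM in SFSN-Ot, against 3.40, 2.77 and 2.14 CPM in Control. For both genes SFSN-Neu and Control did not overlap, and 1 SFSN-Neu library of C1qc, at 6.17 CPM, lay below the highest SFSN-Adipo and SFSN-EC libraries.

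Against Control, all 3 C1q genes were called higher in SFSN-Neu: C1qa by 0.92 (SE 0.22, adjusted p = 0.00306), C1qb by 1.22 (SE 0.23, adjusted p = 0.000303) and C1qc by 1.54 (SE 0.28, adjusted p = 0.000293, all edgeR). Without library 2 of SFSN-Neu, which stood apart, these were 0.82, 1.14 and 1.43 and still called (adjusted p = 0.0156, 0.00177 and 0.00169, edgeR). C1qc was also called in SFSN-Adipo (1.01), SFSN-EC (0.86) and SFSN-FB (0.78), and C1qb in SFSN-TC (0.69), with adjusted p of 0.0107 to 0.0394 (edgeR). These 4 calls rest on single libraries: without library 1 of SFSN-EC, which stood apart, C1qc was at 0.68 in SFSN-EC (adjusted p = 0.109, edgeR), without library 3 of Control it was at 0.64 in SFSN-FB (adjusted p = 0.139) and 0.87 in SFSN-Adipo (adjusted p = 0.0538), and without library 2 of Control C1qb was at 0.45 in SFSN-TC (adjusted p = 0.125, edgeR). The same calls were also lost without SFSN-EC 3 or Control 2 or 3 for C1qc in SFSN-EC, without SFSN-FB 1 or 3 or Control 2 in SFSN-FB, without SFSN-Adipo 2 in SFSN-Adipo, and without SFSN-TC 2 or 3 for C1qb. In SFSN-Ot no C1q gene was called, with fold changes of 0.05 for C1qa, -0.24 for C1qb and 0.26 for C1qc.

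C5ar1, the receptor for the chemoattractant C5a on myeloid cells, was called lower in 3 SFSN groups. Its CPM was 14.4, 14.2 and 12.9 in SFSN-FB, 13.9, 13.6 and 14.6 in SFSN-Ot, and 16.0, 16.0 and 13.5 in SFSN-TC, all below the 20.8, 19.3 and 22.1 CPM of Control. The fold change was -0.58 in SFSN-FB (SE 0.13, adjusted p = 0.00159, edgeR), -0.56 in SFSN-Ot (SE 0.13, adjusted p = 0.00227) and -0.45 in SFSN-TC (SE 0.13, adjusted p = 0.0107). SFSN-Neu had 22.6, 24.1 and 21.1 CPM, SFSN-Adipo 22.8, 15.5 and 23.0 CPM, and SFSN-EC 21.2, 19.2 and 16.8 CPM, which overlapped with Control and gave fold changes of 0.13, -0.02 and -0.12 that were not called. Under total-count scaling, C5ar1 was at -0.26 in SFSN-TC (adjusted p = 0.126) and was called higher in SFSN-Neu at 0.34 (adjusted p = 0.0408, edgeR). The SFSN-TC call was also lost without library 3 of SFSN-TC (-0.37, adjusted p = 0.0577) or of Control (-0.39, adjusted p = 0.0532, edgeR).

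Cd59 differed little. It was called lower in SFSN-Adipo, with 130.4, 116.5 and 114.4 CPM, and in SFSN-Neu, with 126.5, 126.9 and 124 CPM, against 152.7, 148.2 and 142.5 CPM in Control. The fold changes were -0.30 (SE 0.06, adjusted p = 0.000323, edgeR) and -0.23 (SE 0.06, adjusted p = 0.00248, edgeR). Both calls were lost on the log2(TPM + 1) scale and under total-count scaling, at -0.09 and -0.02 in the second, where Cd59 was instead called higher in SFSN-FB (0.23) and in SFSN-Ot (0.14, against -0.02 with the scaling used here). Total-count scaling moved the median fold change of all genes over Control up by 0.16 to 0.21 on the log2 scale, and moved the share of calls that are higher to between 74.3% and 82.5%, against 50.4% to 53.9% with the scaling used here. C3, Cfb, C1s and Cd55 kept their direction and their calls in all 6 groups under it. RefSeq names the gene ID of this row Cd59b.

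Counted by group, SFSN-Neu had 8 of the 9 genes called against Control, 5 higher and 3 lower, where 38.1% of all genes were called (20.1% higher and 17.9% lower). SFSN-TC, SFSN-FB and SFSN-Adipo had 3 higher and 3 lower each, where 19.3% of all genes were higher and 18.8% lower in SFSN-TC, 21.5% and 21.2% in SFSN-FB, and 19.7% and 16.8% in SFSN-Adipo. These were 38.1%, 42.7% and 36.5% of all genes called. SFSN-EC had 3 higher and 2 lower (17.7% and 15.6% of all genes, 33.3% in all), and SFSN-Ot 2 higher and 3 lower (20.2% and 19.3% of all genes, 39.5% in all). The median fold change of the 9 genes was 0.92 in SFSN-Neu and between -0.02 and 0.46 in the other 5 groups, beside medians of 0.00 to 0.02 over all genes tested.

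The second question was how the fates differ among themselves, and a joint test over the 6 SFSN groups found that 8 of the 9 genes varied, where 34.1% of all genes did (edgeR, adjusted p under 0.05). Cfb was the exception (adjusted p = 0.699, edgeR). Each group was then contrasted with the average of the other 5, and Control does not enter these contrasts.

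**Figure D3:**
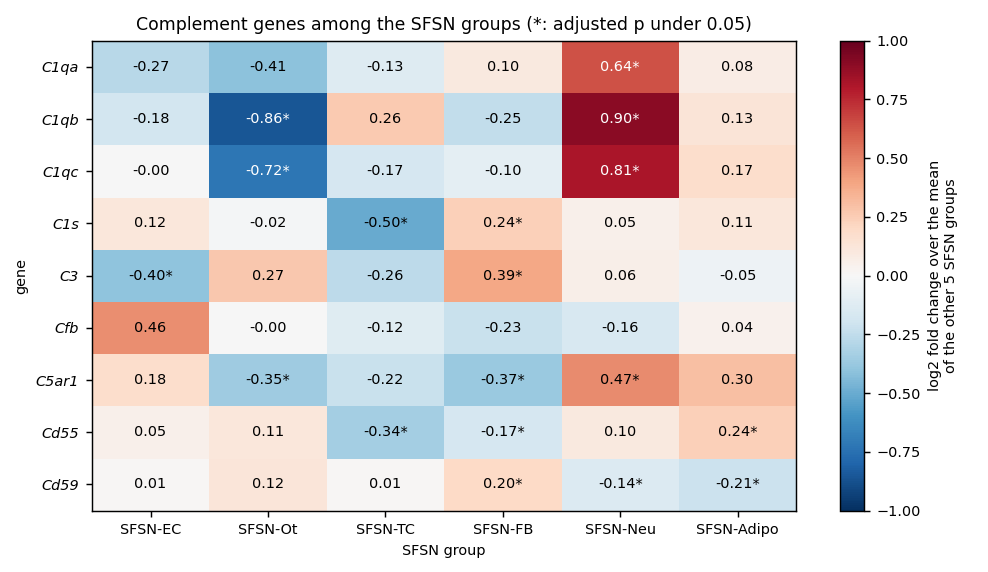
Log2 fold change of each complement gene (rows) in each SFSN group (columns) over the average of the other 5; red is higher, blue is lower, and asterisks mark an adjusted p under 0.05. The C1q genes stand at 0.64 to 0.90 in SFSN-Neu and at -0.86 to -0.41 in SFSN-Ot, and C1s has its lowest value, -0.50, in SFSN-TC.

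In SFSN-Neu the C1q genes and C5ar1 were higher: 4 of the 9 genes were called higher than in the other SFSN groups and 1 lower, where 12.2% of all genes were called (6.7% higher and 5.48% lower). For C5ar1, SFSN-Neu at 22.6, 24.1 and 21.1 CPM overlapped with SFSN-Adipo at 22.8, 15.5 and 23.0 CPM. C1qb was higher by 0.90 (SE 0.16, adjusted p = 0.000925), C1qc by 0.81 (SE 0.20, adjusted p = 0.0101), C1qa by 0.64 (SE 0.16, adjusted p = 0.014) and C5ar1 by 0.47 (SE 0.10, adjusted p = 0.00301, all edgeR), and Cd59 was lower by 0.14 (adjusted p = 0.0475, edgeR), a call that held under 9 of 28 alternatives and was lost with RLE and total-count scaling. Library 2 of SFSN-Neu weighed on this count: without it 2 genes were called, C1qb at 0.81 (adjusted p = 0.015) and C5ar1 at 0.42 (adjusted p = 0.0351), while C1qa was at 0.53 (adjusted p = 0.127) and C1qc at 0.70 (adjusted p = 0.091, edgeR). Without library 1 of SFSN-Neu 3 genes were called, C1qc being at 0.75 (adjusted p = 0.0663, edgeR). SFSN-Ot lay at the other end, with 0 genes higher and 3 lower, where 15% of all genes were called (7.91% higher and 7.1% lower). There C1qb fell by 0.86 (SE 0.19, adjusted p = 0.00443), C1qc by 0.72 (SE 0.23, adjusted p = 0.0405) and C5ar1 by 0.35 (SE 0.10, adjusted p = 0.0279, edgeR). Without library 2 or library 3 of SFSN-Ot 1 of these 3 calls was left, and the C1qc call held under 11 of 28 alternatives.

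In SFSN-TC 2 genes were called, both lower than in the other SFSN groups, where 15.6% of all genes were called (7.64% higher and 7.91% lower): C1s at -0.50 (SE 0.05, adjusted p = 1.94e-06) and Cd55 at -0.34 (SE 0.06, adjusted p = 0.000531, edgeR). In SFSN-FB 5 genes were called, where 24.2% of all genes were (12% higher and 12.2% lower): C3 at 0.39 (SE 0.09, adjusted p = 0.00337), C1s at 0.24 (SE 0.05, adjusted p = 0.00148) and Cd59 at 0.20 (SE 0.04, adjusted p = 0.0016) were higher, and C5ar1 at -0.37 (SE 0.10, adjusted p = 0.013) and Cd55 at -0.17 (SE 0.06, adjusted p = 0.0435, edgeR) were lower. Without library 3 of SFSN-FB 3 of them were called, and the Cd55 call held under 10 of 28 alternatives. SFSN-Adipo had Cd55 higher by 0.24 (SE 0.06, adjusted p = 0.00773) and Cd59 lower by 0.21 (SE 0.04, adjusted p = 0.00334, edgeR), where 10.5% of all genes were called (5.71% higher and 4.78% lower), and 1 call was left without its library 1 or 3. In SFSN-EC C3 alone was called, lower by 0.40 (SE 0.10, adjusted p = 0.0218, edgeR), where 6.01% of all genes were (3.17% higher and 2.84% lower). Without library 1 of SFSN-EC it was at -0.49 (adjusted p = 0.0264), and without library 2 or 3 it was not called (adjusted p = 0.217 and 0.0847, edgeR).

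By mean CPM, SFSN-Neu ranked first for C1qa, C1qb, C1qc and C5ar1. Its libraries lay apart from those of the next group for C1qa and C1qb and overlapped with it for C1qc and C5ar1. For C3 the order was SFSN-FB (9.08), SFSN-Ot (8.50), SFSN-Neu (7.51), SFSN-Adipo (7.04), SFSN-TC (6.26), SFSN-EC (5.76) and Control (1.51), where SFSN-Ot was apart from SFSN-Neu, SFSN-EC was apart from Control, and all other neighbours overlapped. For Cd55 Control was first and every other pair of neighbours, down to SFSN-TC in last place, overlapped. For C1s Control, SFSN-FB and SFSN-TC were apart from their neighbours, and neighbours among the 4 groups between overlapped, though every SFSN-EC library lay above every SFSN-Ot library. For Cd59 SFSN-FB was first, SFSN-Adipo last, and the break lay between SFSN-TC and SFSN-Neu.

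Since C1q is made by macrophages, 21 macrophage and monocyte markers, all in the table, were summed beside it. The C1q genes summed to 22.1 to 28.5 CPM in SFSN-Neu, 14.97 to 18.4 in SFSN-Adipo, 13.7 to 17.3 in SFSN-FB and 12.9 to 17.4 in SFSN-TC. They summed to 10.9 to 18.1 CPM in SFSN-EC and 10.3 to 12.4 in SFSN-Ot, against 10.6 to 11.2 CPM in Control. The macrophage markers summed to 2443 to 2652 CPM in SFSN-Neu, 2129 to 2277 in SFSN-Adipo and 1969 to 2104 in SFSN-FB. They summed to 1600 to 1891 CPM in SFSN-EC, 1590 to 1692 in SFSN-Ot and 1493 to 1523 in SFSN-TC, against 1496 to 1642 CPM in Control. SFSN-Neu was highest on both, while SFSN-TC had C1q sums above Control and macrophage sums within or near the range of Control. Most of the macrophage sum in these 2 groups was Lyz2 and Lgals3, at means of 740.3 and 216.2 CPM in SFSN-TC and 659.7 and 363.3 CPM in Control. Markers of this list moved in both directions: Lgals3 was lower in SFSN-TC than in Control, and Adgre1 higher, at 74.8 against 14.7 CPM.

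**Figure D4:**
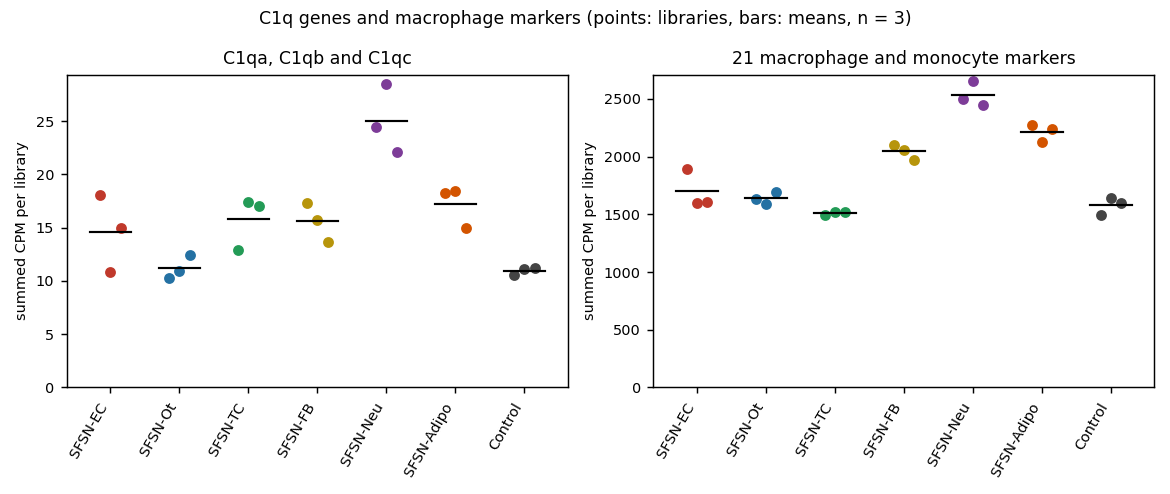
Summed CPM per library of the 3 C1q genes (left) and of 21 macrophage and monocyte markers (right), with group means as bars (n = 3), SFSN groups first and Control at the right. SFSN-Neu is highest in both panels, and SFSN-TC lies near Control in the right panel only.

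Of 20 macrophage markers tested, 17 were called higher and 0 lower in SFSN-Neu than in the other SFSN groups, among them Csf1r, the receptor for the macrophage growth factor CSF1, by 0.97, and the microglia and monocyte chemokine receptor gene Cx3cr1 by 1.03. The count was 4 higher and 0 lower in SFSN-Adipo, 6 higher and 1 lower in SFSN-FB, 2 higher and 7 lower in SFSN-Ot, 0 higher and 8 lower in SFSN-EC and 0 higher and 12 lower in SFSN-TC. Of all genes, 6.7% were higher and 5.48% lower in SFSN-Neu, and 3.17% to 12% were higher and 2.84% to 12.2% lower over the 6 groups. The median fold change of the list was 0.57 in SFSN-Neu and -0.50 in SFSN-TC, against medians of all genes within 0.01 of zero. Against Control, the markers called higher numbered 14 of 20 in SFSN-Neu and in SFSN-Adipo, 11 in SFSN-FB and in SFSN-Ot, 7 in SFSN-EC and 3 in SFSN-TC, while 6 were called lower in SFSN-TC, 3 in SFSN-Ot, 2 in SFSN-FB and 1 in each of the others, where 17.7% to 21.5% of all genes were called higher and 15.6% to 21.2% lower. With total-count scaling 18 were called higher in SFSN-Neu, 15 in SFSN-Adipo, 14 in SFSN-FB, 12 in SFSN-EC, 11 in SFSN-Ot and 5 in SFSN-TC, where 3 were called lower. Of all 6659 genes, 2201 to 2639 were then called higher (2452 in SFSN-TC) and 552 to 803 lower. Cd163, a marker of some resident macrophages, had at most 1 count in SFSN-Ot libraries and 0 in all other libraries. The part of macrophages in the C1q and C5ar1 results was not tested, and in these bulk libraries fewer cells of a type and less RNA per cell cannot be told apart.

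Other blood cell markers were low. Of 8 neutrophil markers 7 were in the table, and they summed to 25.5 to 56.8 CPM in SFSN libraries and 15.8 to 22.0 CPM in Control libraries. Most of this sum was Itgam, also a macrophage marker here, at a mean of 48.9 of 52.0 CPM in SFSN-Neu and 17.0 of 18.5 CPM in Control. Elane had 0 counts, and Cxcr2, Fpr1, Camp and Csf3r had at most 1, 4, 10 and 12 counts in a library. Both markers tested, Itgam and Lcn2, which other lists also hold, were called higher than Control in SFSN-Neu, SFSN-EC and SFSN-Adipo. Of 9 lymphocyte markers 8 were in the table, and they summed to 1.35 to 3.41 CPM in SFSN libraries and 1.89 to 2.27 CPM in Control libraries, and of the 2 tested 1 was called higher than Control, in SFSN-FB. Their part in the results was not tested.

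A wider list of 63 complement pathway genes had 44 in the table, 35 of them outside the 9, and 23 of these 35 had enough counts for the test. Against Control, 7 of the 23 were higher in all 6 SFSN groups (C6, C7, Cd93, Cfd, Cr1l, Itgam and Itgb2), as were 8.5% of all genes tested. Lower in all 6 were 3 (C1r, Calr and Clu), as were 8.97% of all genes. At least 1 group had a call for 18 of the 23, as for 63.5% of all genes tested. Over all 32 tested genes of the list, 12 to 18 were called higher and 6 to 8 lower, depending on the group. Of all genes, 17.7% to 21.5% were called higher and 15.6% to 21.2% lower, and the lower count was near that share. The medians of the list were 0.13 in SFSN-Ot to 0.46 in SFSN-Neu, beside medians of 0.00 to 0.02 over all genes. With total-count scaling 15 to 21 were called higher and 4 to 7 lower, where 2201 to 2639 of all 6659 genes were higher and 552 to 803 lower. Calr, which encodes the chaperone and C1q-binding protein calreticulin, was then called lower in SFSN-TC alone. The other 9 kept their calls in all 6 groups.

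In the alternative pathway, Cfd, the protease that cleaves factor B, was higher than Control by 3.32 in SFSN-TC (SE 0.19, adjusted p = 2.17e-10, edgeR) and by 1.14 in SFSN-FB (SE 0.21, adjusted p = 0.000268, edgeR). It averaged 46.5 ± 4.1 CPM in SFSN-TC and 10.3 ± 1.6 CPM in SFSN-FB, against 4.66 ± 0.66 CPM in Control (SD, n = 3 each). Among the SFSN groups it was called lower in SFSN-FB alone, by 1.65 (adjusted p = 2.20e-07, edgeR). It was called higher in 3 groups, SFSN-TC among them by 0.97 (adjusted p = 1.03e-05, edgeR). Cfp, which encodes properdin, the stabiliser of the convertase, was instead highest in SFSN-FB and lowest in SFSN-TC: 29.5 ± 2.8 CPM in SFSN-FB, 24.6 ± 1.3 CPM in SFSN-Neu and 6.40 ± 0.52 CPM in SFSN-TC, against 9.36 ± 0.36 CPM in Control (SD, n = 3 each). It was higher than Control by 1.66 in SFSN-FB (adjusted p = 2.00e-09) and lower by 0.55 in SFSN-TC (adjusted p = 0.00208, edgeR).

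In the classical pathway, C4b was called higher than Control in 5 SFSN groups, by 0.71 in SFSN-Ot to 2.16 in SFSN-TC (SE 0.21, adjusted p = 1.75e-07, edgeR), and was at -0.58 in SFSN-FB (adjusted p = 0.102, edgeR), with 70 to 106 counts per library in SFSN-TC, 11 to 15 in SFSN-FB and 14 to 24 in Control. C4a, its near copy, had 0 to 10 counts in SFSN libraries and 0 to 19 in Control libraries, and reads shared by the pair make both uncertain. C2, which lies beside Cfb in the RefSeq annotation, averaged 191 to 218 CPM in the SFSN groups and 211 CPM in Control, and was called lower in SFSN-Ot (-0.15, adjusted p = 0.0185) and SFSN-FB (-0.12, adjusted p = 0.0454, edgeR) and not called in the other 4 (-0.02 to 0.05). In the terminal pathway, C7 was higher by 2.20 in SFSN-EC to 2.75 in SFSN-TC and C6 by 1.02 in SFSN-EC to 1.53 in SFSN-Adipo, all called; C5 had 0 to 2 counts and C9 0 to 8 counts in SFSN libraries, and both had 0 in all Control libraries. Of the receptors, C3ar1, for the fragment C3a, was lower in SFSN-EC (-0.88), SFSN-TC (-0.64), SFSN-FB (-0.57) and SFSN-Ot (-0.53), and C5ar2 was called in no group, at -0.43 to 0.15. Clu, which encodes the fluid-phase inhibitor clusterin, was lower by 0.66 in SFSN-FB to 1.22 in SFSN-TC. Cr1l was higher by 0.355 to 0.517 over the 6 groups, and Cd46 was called in no group, at -0.336 to 0.277.

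**Figure D5:**
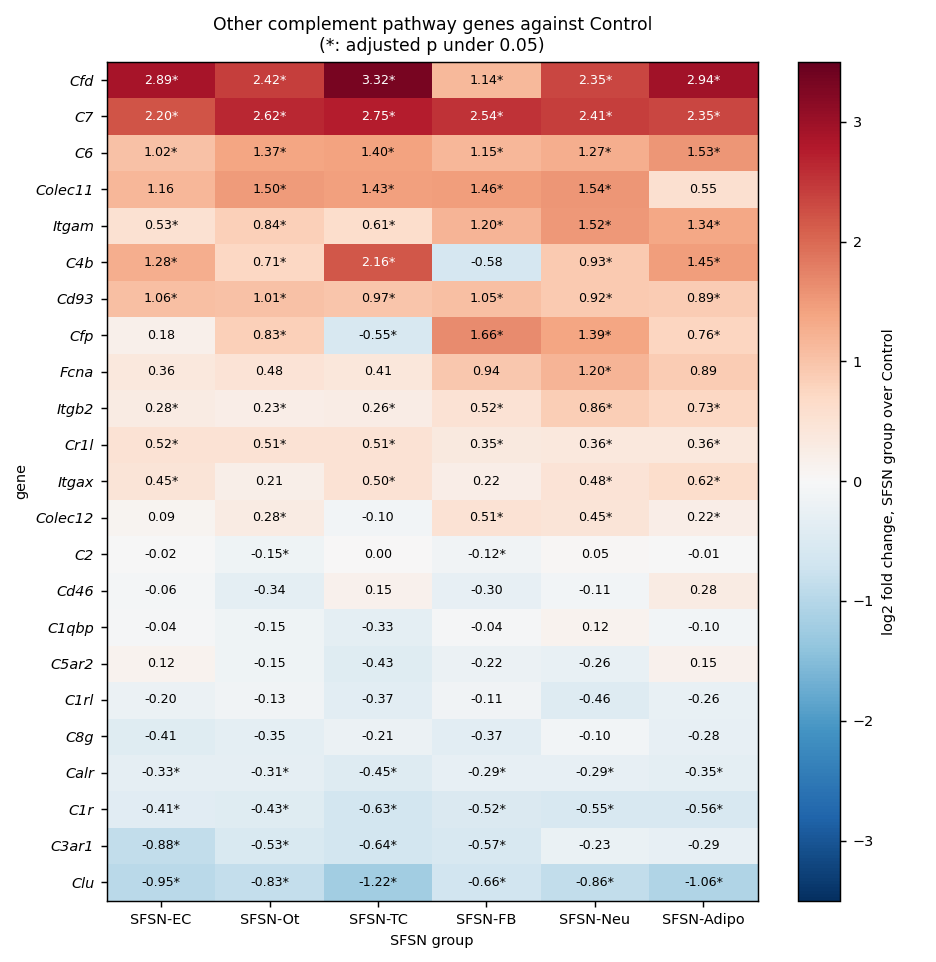
Log2 fold change over Control of the 23 other complement pathway genes tested (rows, ordered by their mean) in the 6 SFSN groups (columns); asterisks mark an adjusted p under 0.05. C7, C6 and Cfd are higher in every column, C1r and Clu lower in every column, and C4b and Cfp differ between columns.

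C3 and factor B are acute phase genes in liver and other tissues, so a list of 19 acute phase and NF-kB target genes, all tested, was set beside them. Of these 19, 8 in SFSN-TC, 12 in SFSN-Neu, 13 in SFSN-EC, SFSN-Ot and SFSN-Adipo, and 15 in SFSN-FB were called higher than Control, and 2 or 3 were called lower, where 17.7% to 21.5% of all genes were higher and 15.6% to 21.2% lower. The median fold change was 0.21 in SFSN-TC and 0.99 in SFSN-FB, the lowest and highest of the 6. Cxcl1, a neutrophil chemokine, was higher by 3.01 in SFSN-Neu to 5.11 in SFSN-FB, Cp, which encodes ceruloplasmin, by 0.73 in SFSN-TC to 1.11 in SFSN-FB, and Hp, which encodes haptoglobin, by 0.86 in SFSN-FB to 1.73 in SFSN-EC. Going the other way, Il1rl1 averaged 2430 to 2913 CPM in the SFSN groups and 4234 CPM in Control. Il1r1 averaged 184.6 to 243.6 CPM in the SFSN groups and 280.3 CPM in Control. With total-count scaling 12 to 16 of the 19 were called higher and 1 to 3 lower. Of all 6659 genes, 2201 to 2639 were then called higher and 552 to 803 lower. The link of this list to C3 and Cfb was not tested. Of 22 interferon response genes, 20 were tested, and 3 to 5 were called higher and 5 to 9 lower, with medians of -0.48 in SFSN-TC to 0.09 in SFSN-FB. The higher count, 3 to 5 of 20, was near the share of all genes called higher. The lower count was near the share of all genes called lower in SFSN-FB, at 5 of 20 where 21.2% were lower. It was highest in SFSN-TC, at 9 of 20 where 18.8% were lower. With total-count scaling 3 to 8 of the 20 were called higher and 3 to 7 lower, where 2201 to 2639 of all 6659 genes were higher and 552 to 803 lower.

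The genes whose pattern over the 21 libraries was nearest to each complement gene were found by the root mean square difference of centred log2 CPM, among 5385 genes of at least 5 CPM. C1qb, C1qc and Cfb, at means of 4.334, 4.885 and 2.157 CPM, were below this cut and could not be listed as a nearest gene. The libraries and their depth are shared by all genes, and these are descriptions. C1qa was nearest to Fcer1g, the signalling chain of Fc receptors (0.21), C1qc to Cd4 (0.31), which rat macrophages also carry, and C5ar1 to Aif1, the gene for the macrophage protein IBA1 (0.16); these 3 genes are also on the macrophage list. Genes outside that list were almost as near: Cmss1 (0.237) and Hspb11 (0.245) to C1qa, and Gpatch4 (0.17) and Cpsf4 (0.177) to C5ar1. Next for C1qc were Impa2 (0.332), outside the list, and Fcgr1a (0.346), which is on it. C1qb was nearest to Lrrc25 (0.31), then to LOC680910 (0.318) and Cd4 (0.319). C3 was nearest to Lrrc17 (0.16), Cfb to Cxcl14 (0.38), C1s to Gpx1 (0.15), Cd55 to Esm1 (0.21) and Cd59 to the tetraspanin gene Cd81 (0.07). For comparison, the difference of each gene from its own flat mean was 0.37 for C1qa, 0.52 for C1qc, 0.30 for C5ar1, 0.48 for C1qb, 0.77 for C3, 0.86 for Cfb, 0.36 for C1s, 0.74 for Cd55 and 0.13 for Cd59.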

How the data were processed

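Total RNA of 21 libraries was quantified by the authors, who per the deposited readme filtered reads with SOAPnuke 2.2.1, used HISAT2 2.2.1 for the genome and Bowtie2 2.4.5 for transcripts (up to 200 alignments per read), and counted with RSEM 1.3.1 as reverse-stranded reads. No annotation release was found in the sources used here. DESeq2 1.34.0 and the build Rnor_6.0 are named in the submitters' processing notes. Per the file headers the table holds, for each gene and library, FPKM, TPM, the expected count and a signal, the read count normalized by the authors with 1 factor per library. It holds part of the genes, and 28 columns of the authors' group means were not used. Expected counts were rounded to whole numbers (84.4% of nonzero values were whole as deposited, within 1e-6), and 26 symbols turned into dates were restored. The gene IDs of 8666 genes matched the RefSeq table.

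Groups came from the sample labels. Genes were filtered with filterByExpr (6659 left) and scaled by TMM, and 1 mean per group was fitted with edgeR 4.0.16 in R 4.3.3 (biological coefficient of variation 11.8%, residual degrees of freedom 14). There were 12 contrasts (each SFSN group against Control and against the mean of the other 5) and 1 joint test, each adjusted by Benjamini-Hochberg over all genes. An SE was taken as the size of the estimate over the root of its F statistic. CPM uses TMM library sizes. The fit was tested on simulated data with 200 changed genes. Alternatives were RLE, total-count and the authors' scaling, no filter, DESeq2 1.42.0, limma 3.58.1 on log2(TPM + 1) and log2(TPM + 0.1), the compared groups alone, the replicate number as a block, each library left out, and, chosen after seeing the data, both libraries that stood apart left out. FPKM was not tested. The named genes are all 9 complement genes, a fixed list of the pathway and the fixed marker, acute phase and interferon lists; those of the last lists given with values were picked as examples after their values were seen. For the nearest genes, the prior count of log2 CPM was 2. The members and lists were chosen with earlier results of these data known. Some genes of the pathway list are not reported here. No 2 replicates agreed within sampling noise.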

Additional observations from a re-analysis of the deposited data

Results flagged for a closer look

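The SFSN groups differed in their difference from Control for 8 of the 9 complement genes, by the joint edgeR test over the 6 SFSN groups (adjusted over all genes, of which 34.1% passed). The adjusted p was 1.70e-05 for C1s, 0.000498 for Cd55, 0.0005997 for C5ar1, 0.000605 for Cd59, 0.00112 for C1qb, 0.00148 for C3, 0.0219 for C1qc and 0.0378 for C1qa. C1s was lowest in SFSN-TC, Cd55 in SFSN-TC, C5ar1 in SFSN-FB, Cd59 in SFSN-Adipo and C3 in SFSN-EC, while C1qb, C1qc and C1qa were highest in SFSN-Neu. Without library 2 of SFSN-Neu the adjusted p was 0.157 for C1qa and 0.0913 for C1qc (edgeR), and 6 of the 9 genes passed.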

How the results depend on the processing

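Of 2591 values of the 9 genes under alternatives, 2439 kept their direction and side of the threshold, 118 lost a call, 33 gained one and 1 reversed: Cd59 in SFSN-Ot against Control, at 0.14 with total-count scaling (adjusted p = 0.0434, edgeR). C3, Cfb, C1s and Cd55 against Control, in all 6 groups, and C1qa, C1qb and C1qc in SFSN-Neu against Control kept their calls under every alternative. C3 ranged over 0.65 to 2.76, Cfb over 0.62 to 3.29, C1s over -1.34 to -0.50 and Cd55 over -2.39 to -1.61, the smallest sizes of C3 and Cfb being on the log2(TPM + 1) scale. Cd59 kept neither of its 2 calls against Control.

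The calls of all genes in SFSN-EC against Control numbered 1381 with the compared groups alone, against 2215. Against the other SFSN groups, complement calls numbered 0 in SFSN-EC with DESeq2 (1 with edgeR) and 2 in SFSN-Neu with both libraries that stood apart left out (5 with all libraries). With 1 library left out at a time, complement calls ranged over 0 to 1 in SFSN-EC, 1 to 3 in SFSN-Ot, 3 to 5 in SFSN-FB, 2 to 5 in SFSN-Neu and 1 to 3 in SFSN-Adipo. Calls over all genes then ranged over 250 to 443 in SFSN-EC, 657 to 1136 in SFSN-Ot, 599 to 1141 in SFSN-TC, 428 to 1205 in SFSN-Neu and 391 to 822 in SFSN-Adipo. In SFSN-Ot all genes called numbered 659 with log2(TPM + 1) and 664 with log2(TPM + 0.1), against 1000 with counts. The causes were not tested. With total-count scaling, the share of calls that are higher was 37.6% in SFSN-Ot, against 52.7%, and 65.4% in SFSN-Neu, against 55%.

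Replicate numbers showed no clear pairing of the libraries: deviations of same-numbered libraries correlated at -0.60 to 0.65 (median 0.06, 63 pairs). Those of libraries with different numbers correlated at -0.64 to 0.74 (median -0.02, 126 pairs). Correlations over 0.1 made up 46% and 38.1% of the pairs, and such spreads do not settle whether libraries were paired. With a replicate block 8 complement genes varied among the SFSN groups, as without it, and complement calls against Control were 5 in SFSN-EC, SFSN-Ot and SFSN-FB, 6 in SFSN-TC and SFSN-Adipo and 8 in SFSN-Neu, the SFSN-FB count being 6 without it. Against the other SFSN groups it left 2 calls in SFSN-Ot (3 without it), 4 in SFSN-FB (5 without it) and 4 in SFSN-Neu (5 without it), and changed no other count. Low counts of Cfb in Control, 9 in all, limit its fold change.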
